A study of Mus musculus with 4 samples.

Results

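The genes described here encode the SR proteins and the heterogeneous nuclear ribonucleoproteins (hnRNPs). They are the protein-coding mouse genes of the RefSeq annotation whose symbols start with Srsf or Hnrnp, 32 of 21896 protein-coding genes: 11 Srsf genes and 21 Hnrnp genes. Accessible regions, called peaks, were assigned to a gene when they overlapped the gene body or lay within 5 kb of either end. This gave 93 of the 87948 peaks in the count table, 28 at Srsf genes and 65 at Hnrnp genes. Of the 32 genes, 31 had at least 1 peak. The exception was Hnrnpa1l2-ps2, an entry that the annotation lists as protein-coding.

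The assay was ATAC-seq: a transposase cuts exposed DNA and adds sequencing adapters to it, so that open chromatin gives more reads. The samples were hearts of mice at postnatal day 14 (P14), which the series' design text calls neonatal: 2 libraries of wild-type hearts and 2 of Carm1 mutant hearts. The labels give no strain, sex or treatment, do not say which part of Carm1 was altered or in which cells, and do not say how many animals each library came from. The p-values below therefore measure only the spread between these libraries, and with whole hearts a change in the share of a cell type cannot be told apart from a change in accessibility per cell.

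SR proteins carry RNA recognition motifs and a domain rich in arginine and serine, and most bind exonic enhancers and help recruit the spliceosome to nearby splice sites. hnRNPs coat nascent transcripts, and many repress the use of splice sites, while others act in RNA export, stability and translation. Carm1 is an arginine methyltransferase whose substrates include histone H3 and several RNA-binding and splicing-linked proteins, and splicing of sarcomere and calcium-handling transcripts is remodelled as the heart matures after birth.

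The promoters of 4 genes are printed because values at their start sites or near the gene are given below. Srsf4, Srsf6 and Hnrnpr had 3 of the 4 most negative differences at a start site. Near Hnrnpa0 lay a pair of the peaks with the smallest p-values. That pair was beyond the 3′ end of the gene, 5023 and 5488 bp from the start, and not at the promoter. Each line gives the bases before the annotated start that lie in no annotated gene, 5′ to 3′ along the gene, from the RefSeq table of assembly GRCm38.p6, which is the assembly mm10 is made from. Capitals mark matches on either strand to 1 of 9 short motifs: here the GC box (GGGCGG, or CCGCCC on the other strand), the CCAAT box (CCAAT or ATTGG), an ETS core (CGGAAG or CTTCCG) and the BANP core (TCTCGCGA or TCGCGAGA).
Srsf4, chr4:131873387-131873529, plus strand: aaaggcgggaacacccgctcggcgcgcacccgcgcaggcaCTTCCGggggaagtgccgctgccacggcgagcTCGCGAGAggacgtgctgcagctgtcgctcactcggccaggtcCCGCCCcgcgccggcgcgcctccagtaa
Srsf6, chr2:162931258-162931507, plus strand: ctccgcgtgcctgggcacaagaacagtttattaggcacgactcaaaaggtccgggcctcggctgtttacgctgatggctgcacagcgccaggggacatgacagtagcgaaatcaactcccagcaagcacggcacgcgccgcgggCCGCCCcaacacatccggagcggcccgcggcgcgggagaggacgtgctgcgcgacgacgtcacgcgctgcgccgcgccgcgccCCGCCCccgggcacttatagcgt
Hnrnpr, chr4:136310692-136310941, plus strand: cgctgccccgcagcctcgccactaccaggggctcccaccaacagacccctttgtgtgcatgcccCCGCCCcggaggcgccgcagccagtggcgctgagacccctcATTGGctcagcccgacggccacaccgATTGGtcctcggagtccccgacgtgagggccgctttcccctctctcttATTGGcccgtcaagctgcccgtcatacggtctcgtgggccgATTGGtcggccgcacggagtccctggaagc
Hnrnpa0, chr13:58128557-58128806, minus strand: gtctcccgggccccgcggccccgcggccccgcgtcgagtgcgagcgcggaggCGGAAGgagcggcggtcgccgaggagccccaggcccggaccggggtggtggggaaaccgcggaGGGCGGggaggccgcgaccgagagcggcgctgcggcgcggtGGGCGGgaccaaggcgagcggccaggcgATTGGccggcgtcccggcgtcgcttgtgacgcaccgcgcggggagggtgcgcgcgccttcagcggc

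The Srsf4 stretch of 143 bases held 1 match each to the ETS core, the BANP core and the GC box. It was cut where the annotated gene begins. The full 250 bases before the start used for its window held 5 matches, and the added ones were GC boxes. The Srsf6 stretch of 250 bases held 2 GC boxes and no other match, whereas the Hnrnpr stretch held 4 CCAAT boxes and 1 GC box. The Hnrnpa0 stretch was the richest of the 4 in GC, at 81.2%, and held 46 CpG dinucleotides, 2 GC boxes, 1 CCAAT box and 1 ETS core.

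Start windows of 300 bases (250 before to 50 after the annotated start) could be read for 28 of the members that had a peak there. Their median GC content was 68.5%, and that of all 10162 protein-coding gene windows with a peak was 61.7%. CpG dinucleotides, the sites of promoter DNA methylation, numbered 31.5 per window at the median among members and 21 among all these windows, and the observed over expected CpG ratio was 1.03 among members and 0.776 among all. A GC box was found in 23 of the 28 windows (82.1%, against 67.3% of all windows with a peak), and a CCAAT box in 17 (60.7%, against 38.6%). The core ATGGCG, bound by YY1, was found in 10 member windows (35.7%, against 15.9%), and it can overlap the CCAAT box where the letters run together. The ETS core was found in 10 (35.7%, against 32.2%), the E-box CACGTG in 4 (14.3%, against 10.3%) and the TATA box TATAAA in 4 (14.3%, against 6.64%), namely Srsf2, Srsf3, Hnrnpab and Hnrnpm. TCTCGCGA was found in 3 (10.7%, against 2.38%), namely Srsf4, Srsf10 and Hnrnph3, GCGCATGC, the NRF1 core, in Srsf7 alone (3.57%, against 5.56%), and the CRE TGACGTCA in none (against 3.43%). These matches are descriptions of letters within 300 bases and are no measure of binding.

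Total counts in peaks were between 15945420 and 19091969 per library, and the median peak held between 90 and 106 counts per library. Mutant replicate 2 had the lowest total. At Carm1 itself 9 peaks were counted, of which 1 was called higher and 1 lower in the mutant hearts, with log2 fold changes between -1.39 and 1.38. These peaks do not check the genotype, because the altered part of the gene is not known. Summed over the start-site peaks of 5 cardiomyocyte markers, accessibility was 530.8 and 514 CPM (counts in a peak scaled by the size of the library) in the wild-type libraries and 614 and 551 in the mutant libraries. The 5 endothelial markers summed to 109 and 73.7 against 74.5 and 70.3, the 5 fibroblast markers to 67.3 and 73.8 against 65.1 and 78.9, and the 4 mural markers to 29.5 and 31.7 against 27.7 and 31.7. Among all 187 peaks of the cardiomyocyte markers, 4 were called higher in the mutant hearts (of Actn2, Myh6 and Ryr2) and 1 lower (of Ryr2). Of 40 endothelial peaks 2 were called lower (of Pecam1 and Tie1), and of 21 fibroblast peaks 1 was called higher (of Col1a1). None of these shares exceeded the 5.5% called among all peaks. The Tie1 peak was a start-site peak, 1 of 5 for the endothelial markers, where 1.05% of all start-site peaks were called. These 5 had a median log2 fold change of -0.29, with 1 above 0. No start-site peak of the cardiomyocyte, fibroblast or mural markers was called. Of 5 macrophage and leukocyte markers only Cd68 had a start-site peak. The part of these differences in the results below was not tested.

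Start-site accessibility was high across the family. A start-site peak is the peak with the most counts over the annotated start. For genes without a promoter entry, it is the peak with the most counts within 1 kb of either gene end. Such a peak was found for 10 of the 11 Srsf genes and 20 of the 21 Hnrnp genes. The exception among Srsf genes was Srsf12, a gene for an SR protein that can repress splicing, whose single peak lay 3973 bp outside the gene and held 4.13 and 3.92 CPM in the wild-type and 4.62 and 3.72 CPM in the mutant libraries. The median over the 30 start-site peaks was 57.6 CPM (16.5 to 176), and that over all 11720 start-site peaks of protein-coding genes was 25.2 CPM. Of the 30, 27 lay above that median and 20 above the upper quartile. Of the 11720, 9333 overlapped a start window and the rest were taken by the gene-end rule, as were 2 of the 30. All comparisons with start-site peaks as a whole use this mixed set. The member peaks were also wider, with a median of 1962 bp against 1248 bp, and per kb of peak their median was 28.3 CPM against 18.9 CPM, with 25 of 30 above the latter. hnRNP start sites had a median of 30.7 CPM per kb and SR protein start sites 22.6 CPM per kb. The 63 member peaks away from their own start site were ordinary in size, with a median of 4.80 CPM against 4.85 CPM for all such peaks.

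**Figure D1:**
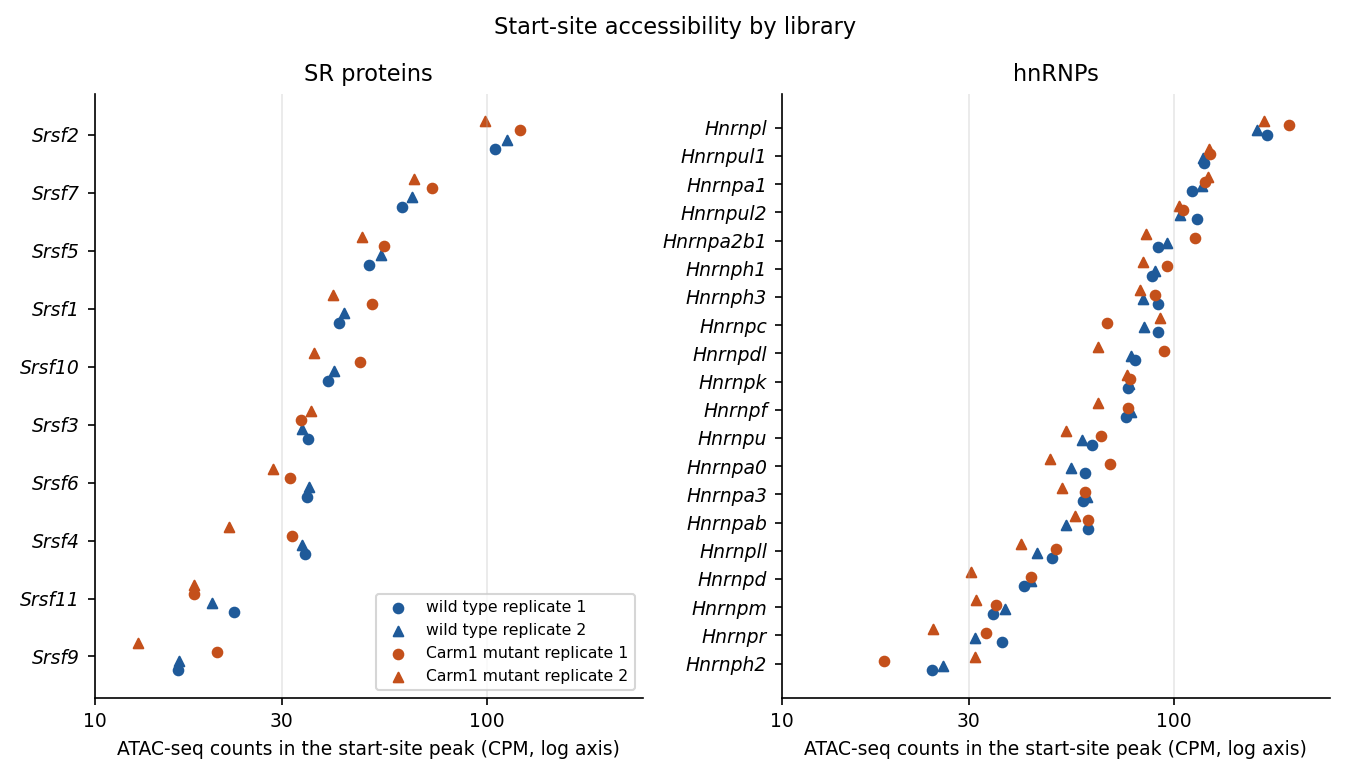
Accessibility of the 30 start-site peaks in each library, in CPM on a log axis, with SR protein genes on the left and hnRNP genes on the right, ordered by mean; circles are replicate 1, triangles replicate 2, blue wild type and orange Carm1 mutant. Values run from 16.5 CPM (Srsf9, mean of the 4 libraries) to 176 CPM (Hnrnpl), and mutant replicate 1 lies above mutant replicate 2 in 26 of 30 genes.

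In no member did start-site accessibility pass the test between genotypes. By edgeR's quasi-likelihood test with Benjamini-Hochberg adjustment over all peaks, 0 of 30 start-site peaks had an adjusted p under 0.05, where 1.05% of all start-site peaks did. None of the 30 had an unadjusted p under 0.05 either, where 7.68% of all start-site peaks did. Both mutant libraries lay beyond both wild-type libraries in 6 of the 30 (20%, 3 in each direction), where 38.1% of all start-site peaks were separated in this way. The log2 fold changes (mutant over wild type) had a median of -0.01 and a range of -0.34 to 0.14, 15 above 0 and 15 below, and the median over all start-site peaks was 0.02. The 95% interval of the difference lay within a fold of 1.5 in either direction for 27 of the 30 genes and within a fold of 2 for all 30. The 3 whose interval reached beyond a fold of 1.5 were Srsf4, Srsf11 and Hnrnpr. Leaving out 1 library leaves its group without a spread of its own, so such fits are described below mainly by their log2 fold changes. Without mutant replicate 1 these were -0.63 at Srsf4 and -0.48 at Hnrnpd. Without mutant replicate 2 they were -0.09 and 0.03.

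**Figure D2:**
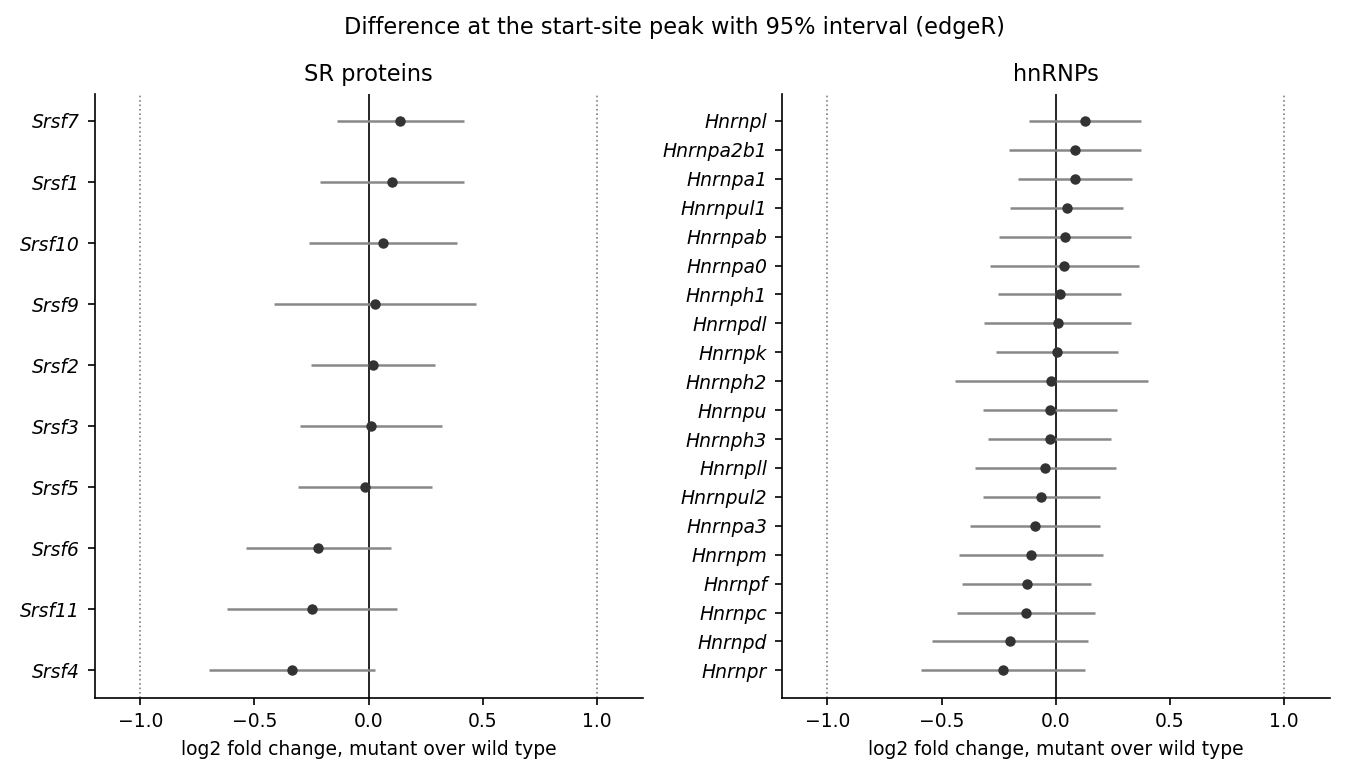
Log2 fold change of each start-site peak, mutant over wild type, as points with 95% intervals from edgeR, SR protein genes on the left and hnRNP genes on the right; the dotted lines mark a fold of 2 in either direction. All 30 intervals include 0 and lie inside the dotted lines, and the points run from -0.34 (Srsf4) to 0.14 (Srsf7).

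Among the SR protein genes the start-site peaks with the most counts were those of Srsf2, Srsf7 and Srsf5. At Srsf2, whose product binds exonic enhancers and marks nuclear speckles, the peak at chr11:116851332-116854821 held 105 and 113 CPM in the wild-type libraries and 121 and 99.3 CPM in the mutant libraries, 31.4 CPM per kb over the 4. The mutant libraries lay on either side of both wild-type libraries, and the peak also covered the start of Mfsd11, a neighbour on the opposite strand. At Srsf7, which acts in splicing and RNA export, the peak at chr17:80206089-80208021 held 60.7 and 64.4 CPM in the wild type and 72.6 and 65.1 CPM in the mutants. The groups did not overlap, but the difference of 0.14 on the log2 scale (interval -0.14 to 0.42) missed the test, with an edgeR adjusted p of 0.592. Srsf5 held 50.02 and 53.9 CPM in the wild type and 54.6 and 48.1 CPM in the mutants, with overlapping groups, and per kb it was the most accessible SR protein start site, at 34.9 CPM. Srsf1, the founding member of the family, held 42.1 and 43.2 CPM against 51.1 and 40.5 CPM.

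The lowest counts among SR protein start sites were at Srsf9, Srsf11 and Srsf4. Srsf9 held 16.4 and 16.4 CPM in the wild type and 20.5 and 12.9 CPM in the mutants, so the mutant libraries differed from each other by more than either did from the wild type. At Srsf11, whose peak also covered the start of Lrrc40, the values were 22.6 and 20.0 CPM in the wild type and 17.9 and 17.9 CPM in the mutants. Both mutant values were below both wild-type values, with a log2 fold change of -0.25 (interval -0.62 to 0.12). Srsf6, which had the lowest accessibility per kb of the SR protein start sites at 16.4 CPM, held 34.9 and 35.1 CPM in the wild type and 31.6 and 28.6 CPM in the mutants, again without overlap (log2 fold change -0.22, interval -0.54 to 0.10).

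Srsf4, which encodes one of the longest SR proteins, had the most negative difference of any start site in the family. The peak at chr4:131873238-131874825 held 34.4 and 33.8 CPM in the wild-type libraries and 31.9 and 22.0 CPM in the mutant libraries, which is 34.1 ± 0.460 CPM against 27.0 ± 7.01 CPM (SD, n = 2 each). The groups did not overlap, but mutant replicate 1 lay close to the wild type. The log2 fold change was -0.34 (interval -0.70 to 0.03), with an edgeR adjusted p of 0.273. Without mutant replicate 1 the log2 fold change was -0.63 and without mutant replicate 2 -0.09, so its size depended on which mutant library was used. A second Srsf4 peak inside the gene, at chr4:131885269-131885956, held 8.66 and 3.82 CPM in the wild type and 4.20 and 2.08 CPM in the mutants. Here the groups overlapped, and the log2 fold change of -0.98 (SE 0.38) had an adjusted p of 0.128. It passed the threshold without wild-type replicate 2 (-1.45, adjusted p 0.0439) and without mutant replicate 1 (-1.57, adjusted p 0.00273). Without wild-type replicate 1, the highest library at this peak, it was -0.28 with an adjusted p of 0.851, and without mutant replicate 2 it was -0.56 with an adjusted p of 0.309. The remaining Srsf4 peak held 6.34 and 7.95 CPM against 4.81 and 5.43 CPM.

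Summed over its 3 peaks, Srsf4 held 48.1 and 44.3 CPM in the wild-type and 38.6 and 28.6 CPM in the mutant libraries. Both mutant values lay below both wild-type values and all 3 peaks had negative fold changes. The summed log2 fold change was -0.46 (SE 0.14, interval -0.75 to -0.16), and its edgeR adjusted p over all genes was 0.0932. Without mutant replicate 1, which leaves 1 mutant library, the summed log2 fold change was -0.69, and without mutant replicate 2 it was -0.26. By summed counts, with all libraries in the fit, 0 of the 31 genes passed the threshold, where 2.52% of all genes with a peak did. Srsf4 was the only one of the 31 with an edgeR unadjusted p under 0.05 (3.23%, where 16.3% of all genes had one). The 31 summed log2 fold changes had a median of -0.04, 10 above 0 and 21 below, and the median over all genes was 0.00. Gene sums were scaled with library factors of their own, which lowered members with a single peak. Srsf2 was 0.019 as a peak and -0.009 as a sum, and Hnrnpk 0.004 and -0.023. The split around 0 therefore depends on the scaling, and among the 93 member peaks 50 were above 0 and 43 below. For 28 of the 31 the 95% interval lay within a fold of 1.5 in either direction. Some sums include the start of a neighbour within 5 kb, such as that of Cox20 for Hnrnpu and that of Pnrc2 for Srsf10.

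Among the hnRNP genes the start-site peaks with the most counts were those of Hnrnpl, Hnrnpul1 and Hnrnpa1. At Hnrnpa1, a well-studied repressor of exon inclusion, the peak at chr15:103238805-103241092 held 111 and 118 CPM in the wild type and 120 and 123 CPM in the mutants. It was the most accessible start site of the family per kb, at 51.5 CPM, followed by Hnrnpc, whose product binds uridine tracts, at 50.4 CPM per kb. The Hnrnpa1 peak also covered the start of Cbx5, which encodes a heterochromatin protein. Its groups did not overlap, and the log2 fold change was 0.08 (interval -0.17 to 0.33). Hnrnpul1, a relative of the scaffold protein hnRNP U, held 120 and 119 CPM in the wild type and 124 and 123 CPM in the mutants, also without overlap, a difference of 0.05 on the log2 scale (interval -0.20 to 0.30). Hnrnpc held 90.9 and 84.2 CPM against 67.7 and 92.3 CPM, and here mutant replicate 1, not 2, was the low library.

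The lowest hnRNP start-site counts were at Hnrnph2, Hnrnpr and Hnrnpm. Hnrnph2, on the X chromosome and sharing its peak with the start of Gla, encodes a protein that binds runs of guanine and held 24.2 and 25.7 CPM in the wild type and 18.2 and 31.0 CPM in the mutants. The mutant libraries lay on either side of the wild type, and the labels do not give the sex of the animals. Hnrnpr, an RNA-binding protein related to Syncrip, held 36.4 and 31.0 CPM in the wild type and 33.2 and 24.3 CPM in the mutants, and at 16.3 CPM per kb its start site was the least accessible of the family by that measure. The groups overlapped, with a log2 fold change of -0.23 (interval -0.59 to 0.13). Summed over its 2 peaks, Hnrnpr had a log2 fold change of -0.28 and an edgeR adjusted p of 0.358, and without mutant replicate 1 these were -0.49 and 0.0208. Without mutant replicate 2 they were -0.11 and 0.707. Hnrnpm, which binds sequences rich in guanine and uridine, held 34.6 and 37.2 CPM against 35.2 and 31.4 CPM.

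Hnrnpl, whose product binds CA repeats and regulates exon inclusion, had the widest start-site peak of the family, 6930 bp at chr7:28807635-28814564. It held 173 and 163 CPM in the wild-type libraries and 197 and 170 CPM in the mutant libraries (log2 fold change 0.13, interval -0.12 to 0.38), with mutant replicate 1 highest. Hnrnpl had 11 peaks, the most of any member, and 10 of the 11 had positive fold changes. Summed over all 11, among them the peak over the start of the neighbour Ech1, it held 315 and 309 CPM in the wild type and 383 and 321 CPM in the mutants. The summed log2 fold change was 0.17 (interval -0.02 to 0.37) with an edgeR adjusted p of 0.367. Without mutant replicate 1 this fold change was 0.04, and without mutant replicate 2 it was 0.29. Mutant replicate 1 was the highest of the 4 libraries at 10 of the 11 Hnrnpl peaks, where it was so at 49.5% of member peaks and 27.0% of all peaks.

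**Figure D3:**
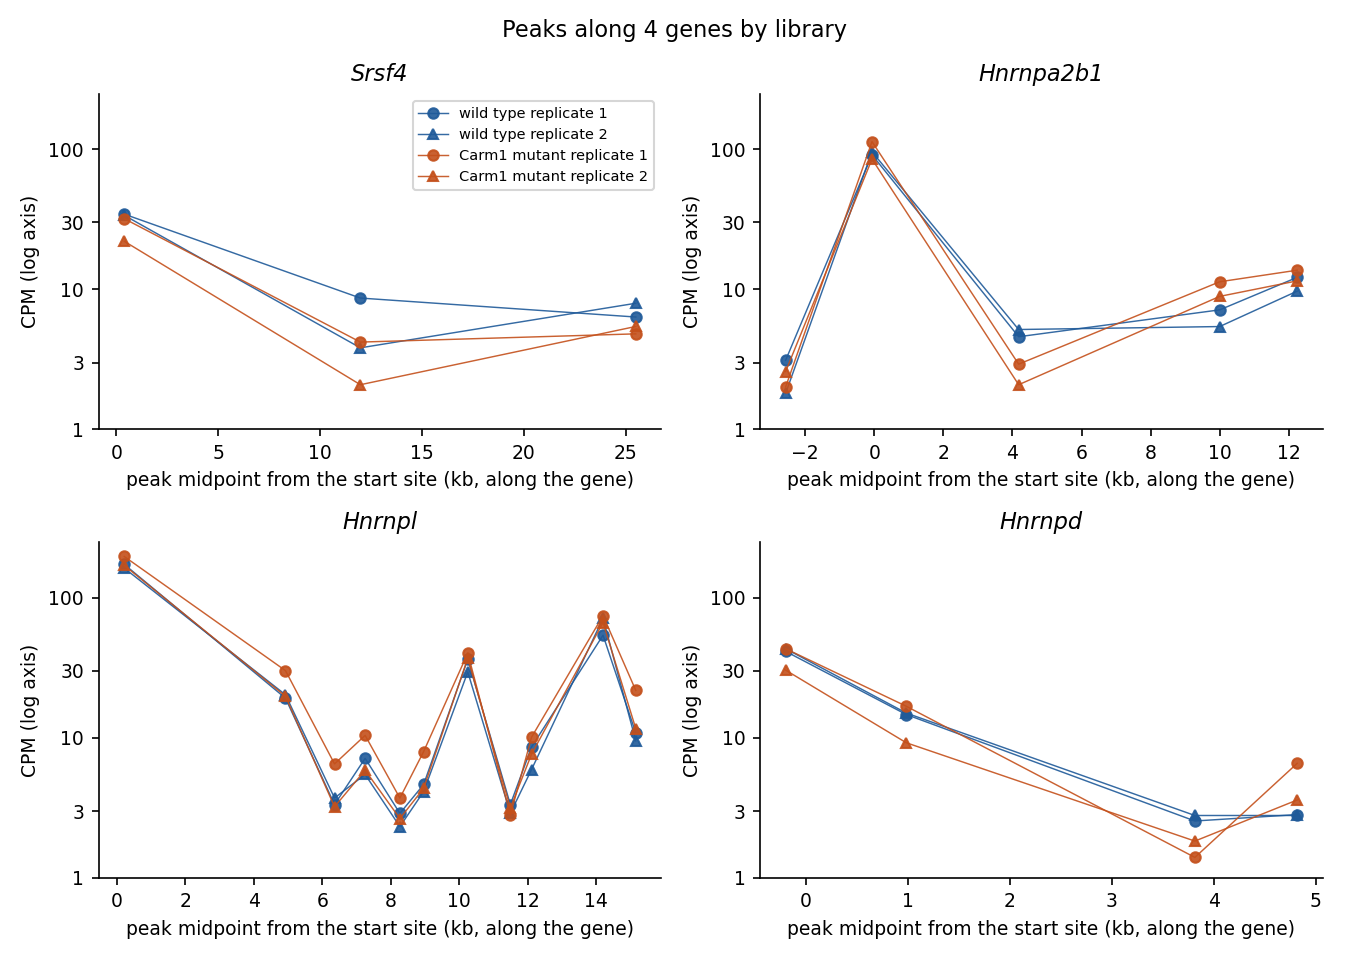
Peaks along Srsf4, Hnrnpa2b1, Hnrnpl and Hnrnpd, with the distance of each peak's midpoint from the annotated start in kb along the gene on the x axis and CPM on a log y axis; symbols and colours show the 4 libraries. The start-site peak is the highest in each gene, mutant replicate 1 is highest at 10 of the 11 Hnrnpl peaks, and at the Hnrnpa2b1 gene-body peak nearest to the start both mutant libraries (2.92 and 2.08 CPM) lie below both wild-type libraries (4.58 and 5.16 CPM).

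Over all 93 member peaks, 0 had an edgeR adjusted p under 0.05, where 5.5% of all peaks did, and DESeq2 and limma voom also called 0. With certain libraries left out edgeR called some member peaks, but in such fits 1 group holds a single library. An unadjusted p under 0.05 was found for 6 of the 93 by each of the 3 tools. By edgeR these were 3 higher and 3 lower in the mutants, 6.45% of the member peaks, where 21.8% of all peaks had one. The groups were separated at 32 of the 93 (34.4%, 18 higher and 14 lower), where 51.5% of all peaks were. All 6 with a small unadjusted p were among the 63 peaks away from the members' start sites, 9.52% of these, where 24% of all such peaks had one. At an adjusted p under 0.05 these 63 gave 0, where 6.19% of all such peaks passed, and 26 of the 63 (41.3%) had separated groups, where 53.5% of all such peaks did. The median log2 fold change was 0.01 over the 93 peaks and -0.00 over all peaks. Precision was lower away from the start sites: the median SE was 0.29 against 0.14 at start sites, and the 95% interval lay within a fold of 2 in either direction for 38 of the 63.

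**Figure D4:**
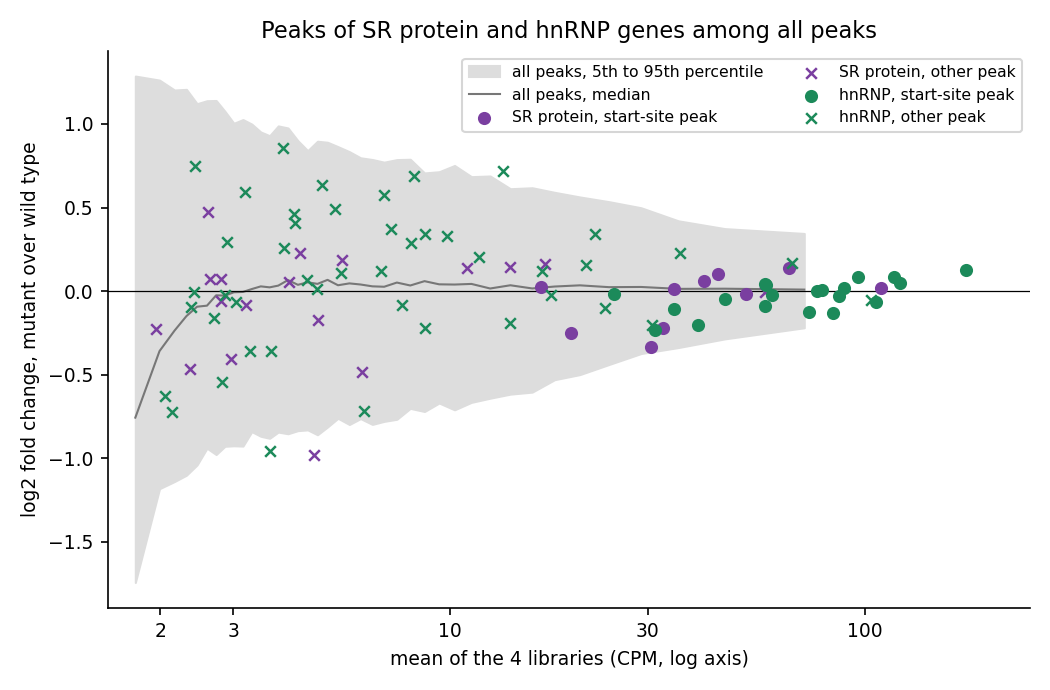
Log2 fold change of the 93 member peaks (mutant over wild type) against their mean CPM on a log axis; purple marks SR protein and green hnRNP genes, filled circles start-site peaks and crosses other peaks, and the grey band holds the 5th to 95th percentile of all peaks in 40 bins of mean CPM. Start-site peaks lie near 0 (-0.34 to 0.14), and the other member peaks reach from -0.98 to 0.86 at lower counts.

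The smallest p among the members' peaks belonged to Hnrnpa2b1, which encodes hnRNP A2/B1, a protein of splicing, RNA transport and microRNA processing. A gene-body peak at chr6:51465349-51466079 held 4.58 and 5.16 CPM in the wild type and 2.92 and 2.08 CPM in the mutants. The groups did not overlap, and the log2 fold change of -0.96 (SE 0.32, interval -1.63 to -0.29) had an edgeR adjusted p of 0.0846. Without mutant replicate 1 the log2 fold change was -1.22, and with each other library left out it was between -1.04 and -0.74. Another peak, at chr6:51459346-51460448, overlapped the 3′ end of the same gene at 51460434 and lay mostly beyond it. This peak went the other way: 7.13 and 5.42 CPM in the wild type and 11.3 and 8.90 CPM in the mutants. These groups did not overlap either, with a log2 fold change of 0.69 and an adjusted p of 0.111. Without mutant replicate 2 this log2 fold change was 0.85, and with each other library left out it was between 0.51 and 0.90. The Hnrnpa2b1 start-site peak, which also covered the start of Cbx3, held 91.2 and 95.9 CPM against 113 and 85.1 CPM, with the mutant libraries on either side of the wild type.

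At Hnrnpl a peak 3457 bp beyond the gene, at chr7:28825725-28826377 and inside the neighbouring fatty acid oxidation gene Ech1, held 10.8 and 9.50 CPM in the wild type and 21.8 and 11.6 CPM in the mutants. The groups did not overlap, but mutant replicate 1 was far above the other 3 libraries. The log2 fold change was 0.72 with an edgeR adjusted p of 0.0924, and without mutant replicate 2 it was 1.10 with an adjusted p of 0.000127. It was 0.19 without mutant replicate 1, with an adjusted p of 0.732. The start of Ech1 itself lay within 5 kb of Hnrnpl and held 54.0 and 71.3 CPM against 74.6 and 66.5 CPM.

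Hnrnpd, which encodes AUF1, a protein that binds AU-rich elements and controls mRNA decay, had 4 peaks, of which 1 had a positive fold change. The start-site peak held 41.4 and 43.2 CPM in the wild type and 43.2 and 30.4 CPM in the mutants, with overlapping groups and a log2 fold change of -0.20. Without mutant replicate 1 this was -0.48, and without mutant replicate 2 it was 0.03. The positive peak, inside the gene at chr5:99973967-99974271, held 2.83 and 2.79 CPM in the wild type and 6.57 and 3.60 CPM in the mutants, a log2 fold change of 0.86 with an edgeR adjusted p of 0.136. Its groups did not overlap, and without mutant replicate 2 the values were 1.22 and 0.0129. They were 0.36 and 0.676 without mutant replicate 1. The other gene-body peaks had negative fold changes: 1 held 2.55 and 2.79 CPM against 1.40 and 1.83 CPM, without overlap (-0.72, adjusted p 0.278), and 1 held 14.7 and 15.0 CPM against 16.8 and 9.21 CPM (-0.19).

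The remaining peaks among the 8 with the smallest p lay at Hnrnpul1 and Hnrnpa0. The Hnrnpul1 gene-body peak at chr7:25746956-25747877 held 6.05 and 9.34 CPM in the wild type and 3.71 and 5.68 CPM in the mutants. The groups did not overlap, with a log2 fold change of -0.72 and an edgeR adjusted p of 0.155. Without mutant replicate 2 these were -1.05 and 0.0261. They were -0.36 and 0.754 without wild-type replicate 2, and -0.44 and 0.441 without mutant replicate 1. Hnrnpa0, an hnRNP that binds AU-rich transcripts, had a peak at chr13:58122879-58123258, in the neighbouring gene Klhl3, with 5.21 and 5.93 CPM in the wild type and 10.6 and 5.99 CPM in the mutants. Mutant replicate 2 there was only just above the wild type, the log2 fold change was 0.57 with an adjusted p of 0.241, and without mutant replicate 2 these were 0.92 and 0.0249. They were 0.10 and 0.899 without mutant replicate 1. An adjacent peak at chr13:58123373-58123693 held 1.92 and 1.70 CPM against 2.37 and 3.72 CPM, without overlap (log2 fold change 0.75, adjusted p 0.257).

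The mutant libraries differed from each other across most of the family, and start-site peaks as a whole leaned the same way, by less. For kinases of SR proteins the start-site peaks summed to 319 CPM in mutant replicate 1 and 270 CPM in mutant replicate 2. For core spliceosome genes these sums were 1042 and 1010 CPM. Whether these sums lean more than start-site peaks as a whole was not tested. Mutant replicate 1 exceeded mutant replicate 2 at 26 of the 30 start-site peaks (86.7%), where it did so at 64.4% of all start-site peaks. The 4 exceptions were Srsf3, Hnrnpa1, Hnrnpc and Hnrnph2. Wild-type replicate 1 exceeded replicate 2 at 14 of the 30 (46.7%), where it did so at 52.6% of all. On the log2 scale, centred on the mean of the 4 libraries, the median member start site stood at 0.02 and 0.00 in the wild-type libraries and at 0.08 and -0.13 in mutant replicates 1 and 2. All start sites together stood at -0.00 and -0.01, and at 0.06 and -0.04. The members' peaks held 0.268% and 0.265% of all counts in the wild-type libraries and 0.279% and 0.246% in the mutant libraries. Mutant replicate 2 was also the library with the fewest counts, and the part of this in the members' values was not tested.

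Many members share their start-site peak with a neighbour, so the counts there cannot be assigned to 1 gene. Among the 28 members with a start window and a peak, the peak also held the start of another protein-coding gene for 10 (35.7%), where 16.4% of the 10162 genes with a window and a peak did. Member start-site peaks were also wider (median 1962 bp against 1248 bp), and the part of width in this share was not tested. All 10 neighbours start on the opposite strand, as did a neighbour for 1614 of the 1670 such genes among all. Examples are Srsf2 with Mfsd11, Srsf11 with Lrrc40, Hnrnpa1 with Cbx5, Hnrnpa2b1 with Cbx3, Hnrnpk with Rmi1 and Hnrnpdl with Enoph1. At Hnrnpk, whose product binds cytosine-rich RNA, such a shared peak held 76.2 and 76.7 CPM in the wild type and 77.4 and 75.9 CPM in the mutants, with the wild-type values between the mutant ones. In each family the strongest peak counted for a member but away from its own start was the start of a neighbour: that of Cox20 near Hnrnpu, with 104 and 107 CPM in the wild type and 114 and 89.2 CPM in the mutants, and, among SR protein genes, that of Pnrc2 near Srsf10, with 59.5 and 55.6 CPM against 64.7 and 49.9 CPM. Only 59 of the 93 member peaks overlapped no other protein-coding gene body.

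Genes that act with these proteins in splicing were counted in the same way. Of 8 kinases that phosphorylate SR proteins (such as Srpk1 and Clk1), 0 of 35 peaks passed the edgeR threshold, and 0 of 69 passed at 23 core spliceosome genes, where 5.5% of all peaks passed. DESeq2 and limma voom also called 0 in both lists, and edgeR's unadjusted p was under 0.05 for 5 and 3 of their peaks (14.3% and 4.35%), where it was for 21.8% of all peaks. The median log2 fold changes were 0.06 and -0.03. Of 32 peaks at 8 SR-related genes, 1 rose: a peak of Srrm2, a large scaffold protein of nuclear speckles, held 3.62 and 3.30 CPM in the wild type and 7.48 and 7.26 CPM in the mutants (log2 fold change 1.09, SE 0.27, adjusted p 0.0252). Of 56 peaks at 12 hnRNP genes with other symbols, 1 rose: a wide peak of Cirbp, an RNA-binding protein induced by cold, held 64.8 and 62.4 CPM against 79.4 and 95.8 CPM (log2 fold change 0.46, adjusted p 0.0494). The shares called in these lists, 3.12% and 1.79%, were below the 5.5% of all peaks, and in each of them limma voom called 1 peak and DESeq2 called 0. At 9 splicing regulators of heart and muscle, 11 of 294 peaks rose and 3 fell (4.76%, near the 5.5% of all peaks), and DESeq2 called 8 of the 294 and limma voom 12. A peak of Rbfox2, which controls a postnatal splicing programme, rose by 0.84 on the log2 scale (19.4 and 17.4 CPM against 34.1 and 31.9 CPM, adjusted p 0.00669), and one of Rbm20, the regulator of titin splicing, rose by 1.29 (4.64 and 3.82 CPM against 7.97 and 12.7 CPM, adjusted p 0.0110). Peaks of Celf2 and Mbnl2 were called in both directions. Leaving out wild-type replicate 2 ended the call of all 4 peaks named here (adjusted p 0.179 for Srrm2, 0.359 for Cirbp, 0.124 for Rbfox2 and 0.0993 for Rbm20). Leaving out wild-type replicate 1 ended those of Srrm2 (0.0989) and Cirbp (0.240), and leaving out mutant replicate 2 that of Cirbp (0.104). None of the peaks called in these lists was a start-site peak, and whether the lists differ from the SR protein and hnRNP genes was not tested.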

How the data were processed

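ATAC-seq libraries of mouse heart, 2 wild type and 2 Carm1 mutant, were prepared by a commercial provider, per the labels' protocols. Per the submitters' processing notes, FastQC and Bowtie2 were used with build mm10. Of the peak caller, filters, duplicate removal and any shift for the transposase, each is not given in the sources used. The deposited table holds the authors' raw read counts per peak, with 1 set of peaks for all 4 libraries. Coordinates are printed as that table gives them.

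Counts were fitted over all 87948 peaks with edgeR 4.0.16 (quasi-likelihood test, TMM scaling, filterByExpr, which removed 0 peaks) in R 4.3.3, with genotype as the only term and Benjamini-Hochberg adjustment at 0.05. CPM were computed with TMM-scaled library sizes. Counts were also summed per gene, given TMM scaling of their own and tested over 15834 genes. The code was tested on simulated data. Annotation and promoter sequences came from RefSeq tables (GRCm38.p6). Hnrnpll and Hnrnpul2 had no promoter entry. As for every gene without one, their start-site peak is the one with the most counts within 1 kb of either gene end.

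Members and lists were chosen with earlier results of these data known. One pathway list and one marker list are not reported here. Full values are given for the 8 peaks with the smallest p, the 3 highest and 3 lowest start-site peaks by mean CPM in each family, separated start-site peaks with an absolute log2 fold change of at least 0.3, and the strongest peak away from the start in each family. Other genes, such as Srsf1, Srsf6, Hnrnpc, Hnrnpd and Hnrnpk, were chosen after their values were seen. Alternatives were DESeq2 1.42.0, limma 3.58.1 (voom), RLE, total-count and trended scaling, no filter, a mean of at least 2 CPM, a replicate block, each replicate left out, other peak windows and only peaks in no other gene body.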

Additional observations from a re-analysis of the deposited data

How the results depend on the processing

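No member peak passed the edgeR threshold under RLE, total-count or trended scaling, without the count filter, with a mean of at least 2 CPM, by DESeq2, by limma voom, within gene bodies only or without peaks in other gene bodies. With a window of 10 kb, 1 of 127 peaks was called higher, a peak near Hnrnpr beyond 5 kb (log2 fold change 1.47, adjusted p 0.0407). Leaving out each replicate in turn called between 0 and 6 member peaks higher and between 0 and 4 lower, and between 0 and 4 genes by summed counts; a group left with 1 library is assumed to vary like the other group, so without a mutant library the spread comes from the wild-type pair alone. Over all peaks these fits called 642 to 4307 higher and 364 to 4132 lower, against 2683 and 2156 with all 4 libraries, and DESeq2 called 1365 and 1008. The cause was not tested. By summed counts the log2 fold change of Hnrnpd was -0.49 without mutant replicate 1. Without mutant replicate 2 it was 0.35 for Hnrnpa0, -0.41 for Hnrnpc and -0.50 for Hnrnph2. With the other mutant library left out instead, Hnrnpd was 0.07, Hnrnpa0 -0.15, Hnrnpc 0.07 and Hnrnph2 0.30.

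The labels number the replicates in both groups without saying that a number marks a shared litter or day, and there are only 2 pairs. Deviations from the group means correlated at 0.108 within a number, the same for both numbers by construction. With the replicate block 2 member peaks were called higher, at Hnrnpl (28825725, adjusted p 0.0222) and Hnrnpa2b1 (51459346, 0.0452), and 2 lower, at Srsf4 (131885269, 0.0207) and Hnrnpa2b1 (51465349, 0.0338; the number is the peak's start), and 1 gene by summed counts, Srsf4 (log2 fold change -0.47, adjusted p 0.00773). Over all peaks the block called 5230 higher and 4494 lower. Away from start sites, where the median member peak held 4.80 CPM, the median SE of 0.29 on the log2 scale limits which differences can be called. The median log2 fold change of the member start-site peaks moved to -0.14 when mutant replicate 1 was left out and to 0.06 when mutant replicate 2 was, and that of all member peaks to -0.08 and 0.10.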
